A study of Mus musculus with 2 samples.

Results

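The Ly6 and uPAR domain family was followed on the arrays through every probe set annotated to exactly 1 of 10 genes, *Ly6a*, *Ly6c1*, *Ly6d*, *Ly6e*, *Ly6g6c*, *Lypd2*, *Lypd3*, *Slurp1*, *Lynx1* and *Psca*. This rule found 12 probe sets of 8 genes among 45101 probe sets and 11934 measured genes. No probe set carried the name of *Ly6a* in the annotation used, and the 1 listed for *Ly6c1* is listed for *Ly6c2* as well, so these 2 genes were not analysed here. Vaginal RNA of female Fbln5-/- mice, which lack fibulin-5 of the elastic fibers, was compared with that of WT mice, both of the C57/Bl6 strain and aged 6 months. Both genotypes were ovariectomized and given estradiol at 50 µg/kg/d for 3 d. The labels put the ovariectomy at 11 d and the series text at 2 weeks. There was 1 Affymetrix array per genotype, and the methods name 2 animals in each group without saying whether RNA was pooled, so no difference has a replicate check and neither an error between animals nor a p-value is given.

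Ly6 and uPAR domain proteins are small, cysteine-rich proteins whose loops are held together by disulfide bridges. Most are tethered to the outer cell surface by a lipid (GPI) anchor, and some, such as SLURP1, are secreted. Several bind nicotinic acetylcholine receptors, others act in complement control, in lipoprotein processing or as the receptor for urokinase. In stratified epithelia such as epidermis and vagina, members of the family appear as cells leave the basal layer and differentiate, while others mark lymphoid, myeloid or endothelial cells.

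The deposited MAS5 signals were scaled to a common median, and all signals given are on that scale, which is linear and in arbitrary units. A gene counted as measured when either array reached a signal of 100, and its brightest probe set stood for it. Ratios are Fbln5-/- over WT. The median log2 ratio of all 11934 genes was 0.16, so a log2 ratio near 0.16 is the middle of these arrays. The targeted gene, *Fbln5*, had a signal of 30.4 on the Fbln5-/- array and 410.4 on the WT array at its brighter probe set, at least 4.10-fold lower. Its other probe set was under 100 on each array, and the position of both relative to the deletion is not known. The control probe set at the 5′ end of *Gapdh* had a log2 ratio of −4.44 and the one at its 3′ end of 0.05, and the *Actb* controls had −1.87 and −0.18. The controls placed between these ends had −1.16 for *Gapdh* and −1.22 for *Actb*. Read from 5′ to 3′, the *Gapdh* signal climbed from 794.7 through 7058 to 13829 on the Fbln5-/- array. On the WT array it went from 17262 through 15720 to 13329. The arrays thus differed most at the 5′ controls and least at the 3′ ones. How much this difference along the transcript bears on the ratio of any gene given here, whether higher or lower, was not tested. The keratins of stratified epithelium were bright on both arrays, with *Krt13* at 21197 on the Fbln5-/- array and 19999 on the WT array and *Krt5* at 16059 and 16102.

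The promoters of *Ly6g6c* and *Lypd3*, 2 epithelial members, are shown side by side. These were the only analysed members matched to a promoter, and their values were already known. *Ly6g6c* was higher on the Fbln5-/- array at all of its probe sets, and *Lypd3* was nearly level. The log2 ratio of *Ly6g6c* at its brightest probe set, 0.51, was reached or passed by 24.0% of all measured genes. Each run holds the 250 bases before the annotated start of the gene, 5′ to 3′, from RefSeq on build GRCm38.p6, plus strand. *Ly6g6c* lies at chr17:35067075-35067324 and *Lypd3* at chr7:24636320-24636569. Capitals mark matches, on either strand, to a TATA box (TATAAA) or a CACCC box (CACCC), the only motifs searched that matched.
Ly6g6c: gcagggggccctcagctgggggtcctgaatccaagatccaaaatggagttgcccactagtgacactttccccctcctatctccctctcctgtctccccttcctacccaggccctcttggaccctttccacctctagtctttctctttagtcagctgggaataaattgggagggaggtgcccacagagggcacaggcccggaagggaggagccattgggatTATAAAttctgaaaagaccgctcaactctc
Lypd3: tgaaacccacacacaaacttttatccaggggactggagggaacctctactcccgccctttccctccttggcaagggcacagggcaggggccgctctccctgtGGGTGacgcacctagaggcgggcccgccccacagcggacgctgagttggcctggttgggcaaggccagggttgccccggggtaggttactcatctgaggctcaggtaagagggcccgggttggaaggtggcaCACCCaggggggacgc

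The *Ly6g6c* window held 1 TATA box, which began 30 bases before the start and is found in 12.4% of 32851 such windows of the promoter table. The *Lypd3* window had none and held 2 CACCC boxes, a motif present in 52.0% of windows. Neither window held an AP-1 motif (TGANTCA, in 6.75% of windows), an interferon-stimulated response element (in 2.98%) or an estrogen response element (the palindrome GGTCA and TGACC spaced by 3 bases, in 0.0639%). None of these motifs overlapped in the windows shown. The GC content was 55.2% for *Ly6g6c* and 65.2% for *Lypd3*. A match is a match of letters and not a site of binding.

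A rise of 2-fold or more was seen for 1 of the 8 genes, *Lypd2*, and a fall of that size for 0, against 7.21% and 4.77% of all measured genes. Aligning the arrays on the probe sets that reached 100 on each of them turned these shares to 5.66% and 5.91%, with *Lypd2* again the 1 gene of the 8. A count of 1 among 8 is not read as particular to the family. All 8 genes had signals of 1000 or more on both arrays at their brightest probe set, and of the 4155 genes as bright as that, a set chosen after the values were seen, 2.29% were at least 2-fold higher and 1.56% lower. The median log2 ratio of the 8 genes was 0.09, below the 0.16 of all genes. The genes ran from a log2 ratio of −0.70 for *Psca* to 1.27 for *Lypd2*. Within this range, 4 genes lay within 1.2-fold (*Slurp1*, *Ly6d*, *Lypd3* and *Ly6e*) and 4 differed by over 1.4-fold (*Lypd2*, *Lynx1*, *Ly6g6c* and *Psca*).

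**Figure D1:**
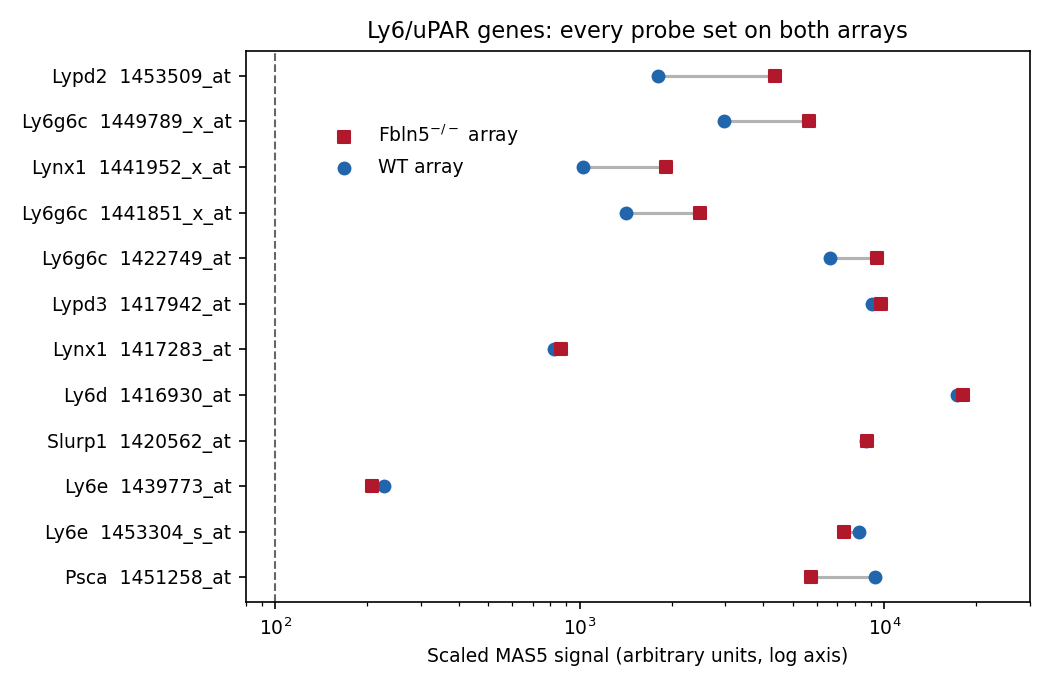
Scaled signal (log axis, arbitrary units) of all 12 probe sets of the 8 Ly6/uPAR genes on the Fbln5-/- array (squares) and the WT array (circles), 1 array each, in order of their ratio. *Lypd2* at the top was 2.42-fold higher on the Fbln5-/- array, *Psca* at the bottom was 1.62-fold lower, and all probe sets lay above the limit of 100 (dashed line).

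*Lypd2*, a member of the family whose function is little described, had a signal of 4371 on the Fbln5-/- array and 1810 on the WT array, a 2.42-fold difference (log2 ratio 1.27). Of all measured genes, 4.11% had a log2 ratio as high or higher. The gene is read by 1 probe set, so no second reading of its transcript stands beside it. Its log2 ratio was between 1.16 and 1.27 under the 5 scalings tried.

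*Ly6g6c*, a GPI-anchored member encoded in the MHC class III region, was the only gene of the 8 with 3 probe sets. At the brightest, the signal was 9430 on the Fbln5-/- array and 6613 on the WT array (1.43-fold, log2 ratio 0.51). The second had 5654 and 2978 (1.90-fold) and the third 2469 and 1417 (1.74-fold), each with the Fbln5-/- signal given first. All 3 probe sets were thus higher on the Fbln5-/- array, and none reached 2-fold. The log2 ratio at the brightest was reached or passed by 24.0% of all measured genes. The 2 with the larger ratios carry the suffix that marks probes which can match other transcripts as well. The 3 log2 ratios, from 0.51 to 0.93, lay closer together than the SD of 0.53 found between probe sets of the same gene, pooled over 4116 genes.

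*Lynx1*, the GPI-anchored brake on nicotinic receptors known from brain, gave 2 readings that differed. At its brighter probe set the signal was 1914 on the Fbln5-/- array and 1023 on the WT array (1.87-fold, log2 ratio 0.90). At the other, which is the one listed with the *Lynx1* RefSeq accession, the signals were 863.6 and 820.6 (log2 ratio 0.07). The ratio at the brighter was reached or passed by 9.05% of all measured genes, and that at the other by 57.4%. The brighter probe set has no accession listed, and its suffix marks probes that can match other transcripts. *Slurp2* is the adjacent gene on the chromosome, and SLURP-2 is listed as a synonym of *Lynx1*, but no probe set was listed for *Slurp2*, and which transcripts the brighter probe set reads was not tested.

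*Psca*, prostate stem cell antigen, a GPI-anchored protein of several epithelia, ran the other way. Its signal was 5737 on the Fbln5-/- array and 9314 on the WT array, 1.62-fold lower (log2 ratio −0.70), and 8.23% of measured genes had a log2 ratio as low or lower. It is read by 1 probe set as well. The log2 ratio was between −0.70 and −0.81 under the 5 scalings, so the gene stayed short of a 2-fold decrease in each.

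*Slurp1*, *Lypd3* and *Ly6d*, picked out here with their values known, differed little, at 0.02 to 0.10 on the log2 scale. *Slurp1*, which encodes the secreted ligand mutated in the human palmoplantar keratoderma Mal de Meleda, had signals of 8788 on the Fbln5-/- array and 8694 on the WT array (log2 ratio 0.02). *Lypd3*, a relative of the urokinase receptor on suprabasal keratinocytes, had 9753 on the Fbln5-/- array and 9076 on the WT array (log2 ratio 0.10). *Ly6d*, a keratinocyte surface antigen that also marks lymphoid progenitors in mouse, had 18134 on the Fbln5-/- array and 17289 on the WT array (log2 ratio 0.07). The signs of these 3 ratios follow the scaling: all were above 0 on the common median, and all were below 0 (−0.09, −0.01 and −0.04) when the arrays were instead aligned on the probe sets that reached 100 on each of them. Each was below the median of all genes under both scalings. The highest signal of any probe set was 22877 on the Fbln5-/- array and 22113 on the WT array, and whether signals as high as that of *Ly6d* still followed the amount of RNA was not tested.

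*Ly6e*, an interferon-inducible member that serves as the receptor for a syncytin in mouse placenta, was slightly lower on the Fbln5-/- array at both of its probe sets. The brighter had signals of 7375 on the Fbln5-/- array and 8236 on the WT array (log2 ratio −0.16), and the dimmer had 207.4 and 226.6 (log2 ratio −0.13). The brighter probe set had log2 ratios between −0.16 and −0.27 under the 5 scalings.

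**Figure D2:**
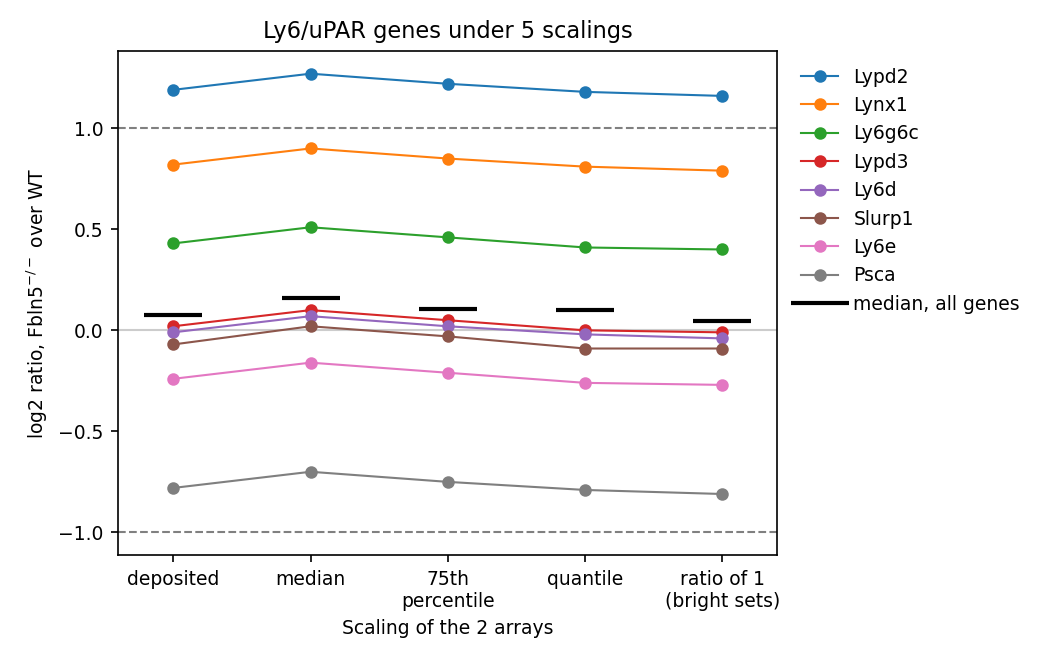
Ratio on the log2 scale (Fbln5-/- over WT, single arrays) of the 8 Ly6/uPAR genes under 5 scalings of the arrays, with black bars for the median of all measured genes and dashed lines at a 2-fold difference. *Lypd2* stayed above 1 in all 5 (1.16 to 1.27) and *Psca* stayed above −1 (−0.70 to −0.81), while *Lypd3*, *Ly6d* and *Slurp1* lay on both sides of 0 depending on the scaling.

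Of the 8 genes, 6 lie in 1 cluster on chromosome 15, *Ly6g6c* lies on chromosome 17 and *Lypd3* on chromosome 7. In the order of the GRCm38.p6 gene table, used here for neighbours only since no build is named in the files, 29 protein-coding genes run from *Psca* to *Gpihbp1*, and 12 of them were measured. Of these 12, taken in order with the unmeasured genes skipped, 8 in a row from *Them6* to *Ly6m* had log2 ratios above 0. The other 4 (*Psca*, *Ly6e*, *Ly6h* and *Gpihbp1*) were below 0. The median of all genes was itself above 0, at 0.16, and 6 of the 12 lay above it. The row is thus not read as a block that rose together. *Slurp1* and *Ly6d*, within that row, lay below 0 under the alignment on probe sets at 100 on each array. *Psca* (log2 ratio −0.70) is followed by *Them6* (1.27; signals of 316.5 on the Fbln5-/- array and 131.2 on the WT array), *Slurp1* (0.02), *Lypd2* (1.27), *Lynx1* (0.90) and *Ly6d* (0.07). Farther along came *Ly6g6g* (0.28), *Ly6k* (1.56), *Ly6m* (0.59) and *Ly6e* (−0.16). Among the measured genes *Lypd2* thus lay between *Slurp1*, which was level, and *Lynx1*, whose probe sets differed.

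**Figure D3:**
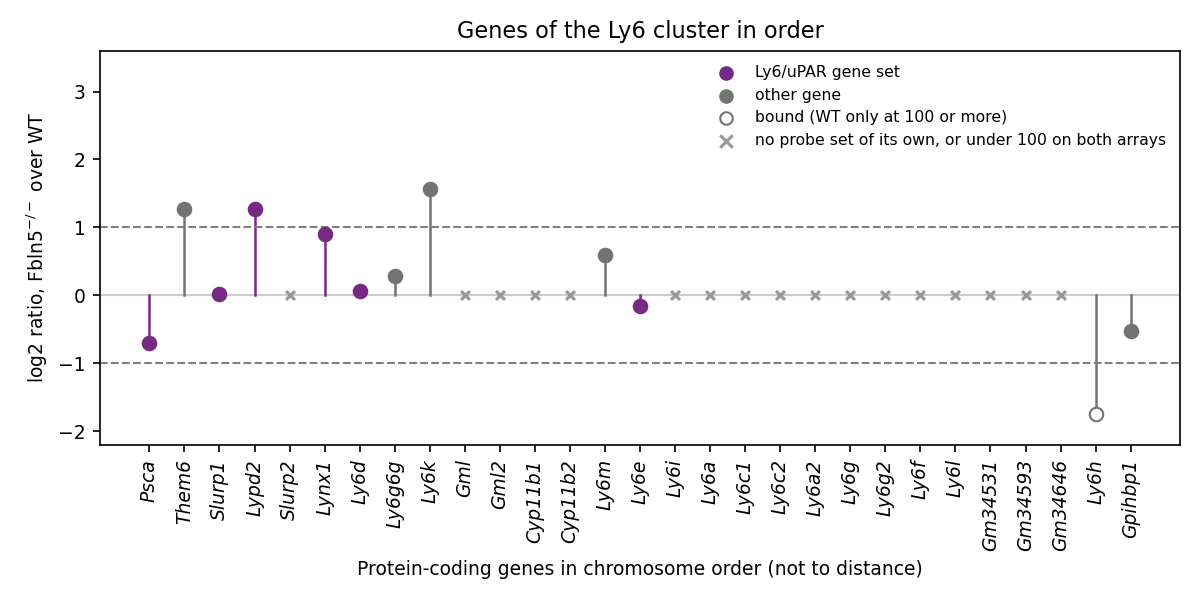
Ratio on the log2 scale (Fbln5-/- over WT, single arrays, after the floor of 100) of the 29 protein-coding genes from *Psca* to *Gpihbp1* in chromosome order, with 12 measured. Higher genes (*Them6* at 1.27, *Lypd2* at 1.27, *Ly6k* at 1.56) stand among level ones (*Slurp1*, *Ly6d*) and lower ones (*Psca* at −0.70), and the open circle for *Ly6h* is a bound.

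Beyond these genes, 33 other Ly6/uPAR domain genes were listed, a list that does not hold every family gene (*Ly6g6g*, given above, is not in it). Of these, 22 had a probe set of their own and 12 were measured. Of the 12, 1 was at least 2-fold higher and 3 were lower, as measured and after signals under 100 had been raised to 100, here called the floor. The count of lower genes was 1 without probe sets whose suffix is _x_at, _s_at or _a_at, on which *Lypd1* and *Plaur* rest, and 2 among genes at 100 on each array. The median log2 ratio was 0.18 (0.09 with the floor). The higher gene was *Ly6k*, known for its part in sperm function in mouse, with 1254 on the Fbln5-/- array and 426.1 on the WT array (2.94-fold). Its second probe set, at 122.8 and 88.3, was at least 1.23-fold higher. The lower genes were *Ly6h*, *Lypd1* and *Plaur*. *Ly6h*, a neuronal member that regulates nicotinic receptors, had 19.0 on the Fbln5-/- array and 336.9 on the WT array, at least 3.37-fold lower. *Lypd1*, another nicotinic receptor partner, had 115.2 on the Fbln5-/- array and 349.0 on the WT array (log2 ratio −1.60), and *Plaur*, the urokinase receptor that gives the family part of its name, had 199.9 and 455.6 (log2 ratio −1.19). All 3 lower genes were dim, and each rests on 1 probe set past the limit.

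The remaining 8 were within 2-fold. *Pinlyp*, a secreted family member, had 3932 on the Fbln5-/- array and 2797 on the WT array (log2 ratio 0.49), and *Ly6g6e* had 2940 and 2682 (0.13). *Cd59a*, which blocks the membrane attack complex of complement, had log2 ratios of 0.61 and 0.20 at its probe sets. *Gpihbp1*, which carries lipoprotein lipase across capillary endothelium, had 170.5 on the Fbln5-/- array and 246.3 on the WT array (−0.53). *Ly6m*, *Lypd6b* and *Lypd5* had log2 ratios of 0.59, 0.46 and 0.05, and *Lypd6*, at 100.2 and 85.9, passed the limit only through the Fbln5-/- array.

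The receptors that SLURP1 and LYNX1 act on were mostly under the limit. Of 16 nicotinic receptor subunits listed, 15 had a probe set and 2 were measured, none of them 2-fold different (median log2 ratio 0.06). *Chrnb1*, a subunit of the muscle receptor, had 226.1 on the Fbln5-/- array and 146.4 on the WT array (log2 ratio 0.63). *Chrna7*, the subunit linked to SLURP1 in human keratinocytes, had 99.8 on the Fbln5-/- array and 141.6 on the WT array, at least 1.42-fold lower, and under 100 on both at its other probe set. A signal under 100 does not show that a subunit was absent.

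Cell type lists were set beside the family. The cornified and suprabasal epithelium list held 45 measured genes, of which 17 rose by 2-fold or more in Fbln5-/- and 0 fell (16 and 0 after the floor). Its median was 0.55 on the log2 scale, and its summed signal was 1.39-fold higher. *Slurp1*, *Lypd3* and *Ly6d*, with log2 ratios of at most 0.10, stood below that median, near *Krt13* (0.08), *Krt10* (0.04), *Dmkn* (0.27) and *Cnfn* (−0.11), the 4 brightest of that list. *Lypd2* and *Ly6g6c*, at 1.27 and 0.51, stood above and close to that median. *Psca*, at −0.70, stood well below it, and the probe sets of *Lynx1*, at 0.90 and 0.07, on either side of it. The basal epithelium list had a median of 0.05, with 0 of 10 higher and 1 lower, and the mucous and glandular list one of 0.22, with 2 of 14 higher and 1 lower (1 and 1 after the floor). Their 4 brightest genes were *Krt14* (0.52), *Krt15* (0.10), *Krt5* (0.00) and *Col17a1* (−0.11) in the basal list, and *Epcam* (0.99), *Tff1* (0.40), *Ltf* (0.07) and *Krt7* (−0.03) in the mucous list. The other probe sets of *Krt14* had 0.10 and −0.29, and the second of *Epcam* had 1.24 (2.36-fold). The part of either epithelial list in the values of *Lypd2* and *Ly6g6c* was not tested, and in whole tissue a larger share of a cell type cannot be told apart from more RNA per cell.

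*Ly6e*, at −0.16, lay below the median of the interferon response list, in which 12 of 32 rose by 2-fold or more and 1 fell (10 and 1 after the floor). The median of that list was 0.73 (0.65 with the floor) and its summed signal was 1.38-fold higher. These values follow the limit. When each array had to reach 100, 5 rose and 1 fell, with a median of 0.49. When each had to reach 1000, a limit set after the values were seen, only *Ifitm3*, *Ifi35* and *Ifi27* were left. Of these, 0 rose and 0 fell, and the median of 0.17 is the value of *Ifitm3*. *Ifitm1*, at 919.2 on the WT array, dropped out. The contrast with *Ly6e* was thus smaller for bright genes. Of the 4 brightest genes of the interferon list, *Ifitm1* had a log2 ratio of 1.94, *Ifi35* 0.49, *Ifitm3* 0.17 and *Ifi27* −0.39. Other probe sets of the same genes differed, with *Ifi27* at 0.40 and *Ifi35* at −0.41 and −0.01. For cells that other Ly6 genes mark, the endothelium list had a median of 0.08 (0 of 20 higher, 2 lower), the monocyte and macrophage list −0.03 (3 of 15 higher, 2 lower) and the T and NK lymphocyte list 0.00 (0 of 6 either way). In the neutrophil list, with a median of 0.23, 3 of 8 genes were above 2-fold and 3 below (3 and 1 after the floor). The 4 brightest endothelial genes went both ways, with *Aqp1* at 0.74, *Plvap* at −0.48, *Cd34* at −1.04 and *Eng* at −1.22 (0.00 at its second probe set). In the monocyte and macrophage list *Csf1r* was at 0.56 (0.68 and −0.18 at its other probe sets) and *C1qb* at 0.14 (0.47 and 0.67 at its others). There *Lyz1* was at −0.11 (−0.61 at its second probe set past the limit) and *Lyz2* at −0.19. In the neutrophil list *Chil3* was at 3.71, *S100a8* at 1.87, *Ltf* at 0.07 and *Il1r2* at −1.85, and in the lymphocyte list *Cd8a* at 0.48, *Thy1* at 0.35, *Il7r* at 0.07 and *Cd5* at −0.08.

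**Figure D4:**
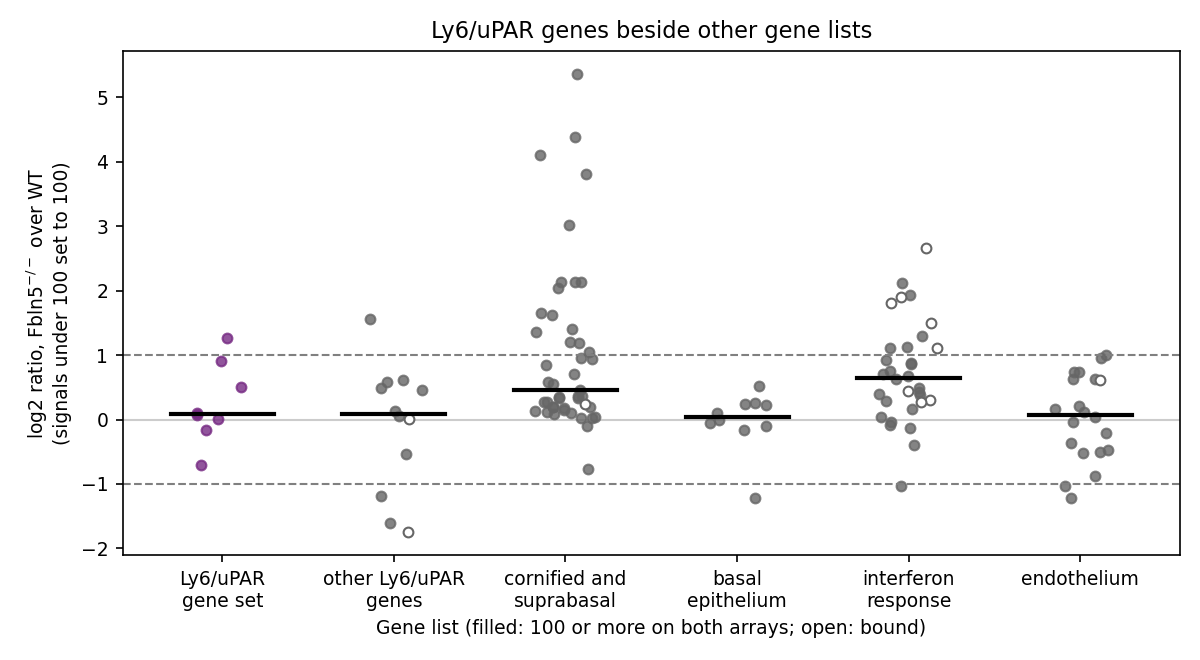
Ratio on the log2 scale (Fbln5-/- over WT, single arrays, after the floor of 100) of the 8 Ly6/uPAR genes and of 5 other gene lists, with black bars for list medians and dashed lines at a 2-fold difference. The 8 genes (median 0.09) spread to both sides of 0 as the other Ly6/uPAR genes did (0.09), while the cornified and interferon lists reach far above 1.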

How the data were processed

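RNA from vaginal tissue was measured on Affymetrix mouse expression chip 430 2.0 arrays, 1 per genotype. The authors deposited signal intensities on a linear scale for 45101 probe sets, made with MAS5 (named in the submitters' processing notes, which give no version). The mean after trimming the lowest and highest 2% was 500.0 on both arrays, so a scaling had been applied. Both arrays were brought to the same 50th percentile, with factors of 1.03 for Fbln5-/- and 0.972 for WT, and the single value of 0, on the WT array, became 0.1. Probe sets that reached 100 on either array were kept, and 64 control probe sets were left out. Where 1 array was under 100, the fold is a bound against 100. Present and marginal calls were not used here.

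Gene names came from the platform annotation, in which 34958 had 1 symbol, 932 several and 9211 none, and 34754 matched the GRCm38.p6 gene table. Promoters of 3 of the 10 genes were matched in the RefSeq table. Genes were named by a rule: all members, all other Ly6/uPAR genes and receptor subunits at 100 or more on an array, and of other lists the 4 brightest, whatever their ratio. The members and lists were chosen with earlier results of these data known. No test was made with 1 array per genotype, and the number of arrays limits the precision. The steps were run on simulated data with less noise than lay between probe sets here, which checks the code and not the values of these arrays. Python 3.11.15, numpy 2.4.6 and pandas 2.3.3 were used.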

Additional observations from a re-analysis of the deposited data

Results flagged for a closer look

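The following 2 signals come from probe sets that the comparison above did not use.

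The probe set listed for *Ly6c2* and *Ly6c1* together, genes of myeloid and endothelial cells, had signals of 4567 on the Fbln5-/- array and 2869 on the WT array (log2 ratio 0.67, 1.59-fold). It cannot be assigned to either gene.

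The 5′ control of *Gapdh* had signals of 794.7 on the Fbln5-/- array and 17262 on the WT array, a log2 ratio of −4.44.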

How the results depend on the processing

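For Ly6/uPAR genes, the count of 2-fold increases was 1 (*Lypd2*) and that of 2-fold decreases was 0 under every scaling, limit, floor, pseudocount and choice of probe set tried. *Lypd2* has 1 probe set, so no choice of probe set was open for it. The lowest signal of any of the 12 probe sets was 207.4, so limits up to 200 and the floor of 100 could not change these counts. These counts follow the threshold: at 3-fold, 0 were higher and 0 lower, and at 1.5-fold 2 were higher (*Lynx1* and *Lypd2*) and 1 was lower (*Psca*). The median log2 ratio of the 8 genes lay between −0.02 and 0.09, and 9 to 13 of the 14 other lists had a median above 0, against 12. Setting the median ratio at 100 or more on both arrays to 1 moved the median of all genes to 0.05, against 0.16, and the count of all genes higher and lower to 676 and 705, against 861 and 569, and the mean over probe sets moved it to 779 and 835. Without probe sets with the suffixes _x_at, _s_at and _a_at, the log2 ratio of *Lynx1* was 0.07, against 0.90, since its other probe set then stands for it. The mean over probe sets gave 0.49 for *Lynx1* and 0.75 for *Ly6g6c*. Genes at 1000 or more on both arrays and each other probe set were chosen after seeing the data. No paired analysis was possible because there is 1 array per genotype. Signals under 100, which made up 55.9% of Fbln5-/- and 54.8% of WT probe sets as deposited, limit the lists: their medians and counts include genes that reached 100 on a single array, with ratios as measured unless the floor is named. Among the other Ly6/uPAR genes the count of 2-fold decreases was 3, but 2 at 100 or more on both arrays and 1 without the suffixes named above, while with no limit it was 5, and that of increases 2.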

Other observations

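Of the lists not described above, the adipocyte list had a median of 2.52 on the log2 scale (1.38 after the floor of 100). In it 8 of 10 genes rose by 2-fold or more in Fbln5-/- (6 after the floor) and 0 fell. Of all measured genes, 7.21% rose that much. For 6 of the 10 the WT signal was below 100, so these counted as measured by their Fbln5-/- signal alone. With 100 required of each array, 3 rose and 0 fell, and the median was 1.38. The 4 brightest adipocyte genes were *Fabp4*, the fatty acid carrier, at 1.53, *Pnpla2* at 0.44, and *Adipoq* and *Thrsp*. The signals of *Adipoq* and *Thrsp* were 1131 and 1140 on the Fbln5-/- array and 104.1 and 29.8 on the WT array. The fibroblast list had a median of 0.38 (1 of 14 higher, 2 lower), the smooth muscle list 0.11 (1 of 10 higher, 0 lower) and the neuron and Schwann cell list 0.37 (1 of 9 higher and 2 lower, or 0 and 2 after the floor). The 4 brightest fibroblast genes, *Col1a2*, *Col3a1*, *Dcn* and *Col1a1*, had log2 ratios of 0.10, 0.26, 0.40 and 0.11. The 4 brightest smooth muscle genes, *Acta2*, *Tagln*, *Mylk* and *Actg2*, had 0.14, −0.02, 0.38 and 0.68, and the 4 brightest neural genes, *Ncam1*, *Tubb3*, *Gap43* and *Sox10*, had 0.28, −0.10, −1.54 and 0.78. Dimmer probe sets of some of these genes went the other way. Those of *Mylk* had −0.85 and −1.37, the dimmest of *Col1a2* had −0.49, and 1 of *Ncam1* was at least 1.36-fold lower. The dimmer probe set of *Col3a1* was higher than its brighter one in ratio, at 1.24 (2.36-fold).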
